A study of Mus musculus with 2 samples.

Results

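The cell division cycle is driven by cyclins that activate cyclin-dependent kinases (CDKs), is set up in G1 by loading of the MCM helicase onto replication origins, and ends in mitosis under the control of the Aurora and Polo kinases and the spindle checkpoint. CDK inhibitors of the INK4 and CIP/KIP families hold the cycle back, and p53 induces Cdkn1a and genes of cell death when DNA is damaged. In blood stem cells, most of which are out of cycle at a given moment, these inhibitors are known for keeping the cells quiescent. Described here are 60 protein-coding mouse genes of this machinery, out of 21887 on the assembled chromosomes, and where they lie relative to the peaks of a Usp16 chromatin immunoprecipitation (ChIP-seq). They were chosen by name, and fall into 13 G1/S genes, 9 replication licensing genes, 16 genes of mitosis, 8 CDK inhibitors and 14 genes of the p53 pathway. All 60 symbols were found in the RefSeq gene table.

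Usp16 is a deubiquitinase of histone H2A. The anti-Usp16 library and the IgG library were both made from ckit and sca1 positive cells, that is hematopoietic stem and progenitor cells, of the bone marrow of mice with the genotype Mx1 Cre:Usp16loxp/loxp. Cre in such mice is driven by the interferon-inducible Mx1 promoter, and the labels do not say whether it had been induced, so whether the cells still held Usp16 is not known here. There was 1 library per antibody, the labels do not say whether animals were pooled, and only the peak list of the anti-Usp16 library was analysed. A peak list holds no expression values, so the labelled cell type could not be checked against its markers.

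The list held 5046 peaks on the assembled chromosomes, with scores between 50 and 2409 and a median of 69.9. The score is the authors' value from their peak caller. Weaker sites are not listed and read depth is unknown, so a gene without a peak is a gene with none listed. With 1 list and no replicates, the counts below carry no test, and their exact Clopper-Pearson 95% intervals cover counting error only.

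A peak within 1 kb of an annotated end of the gene, called a gene-end peak, was found at 11 of the 60 genes, which is 18.3% (95% interval 9.52 to 30.4%), against 13.9% of all protein-coding genes. The 11 genes were Cdk4, Mcm4, Mcm7, Pcna, Cdt1, Cdk1, Aurka, Cdkn2d, Trp53, Mdm2 and Sesn2, and their 11 peaks were distinct. A further 3 genes, Ccnd3, Mdm4 and Bbc3, held a peak inside the gene and none at its ends, which is 5.0% against 4.04% of all protein-coding genes. Together 14 of the 60 genes carried a peak at an end or inside (23.3%, interval 13.4 to 36.0%), against 17.9% of all protein-coding genes. Both intervals for the 60 genes hold the background share. As the genes were chosen with earlier results of these data known, the intervals are no test. No peak at an end or inside was listed for the other 46 genes, among them every cyclin but Ccnd3, every E2F gene on the list and 7 of the 8 CDK inhibitors.

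For 5 groups of such size the shares ranged widely and their intervals overlapped. Of the replication licensing genes 4 of 9 carried a gene-end peak (44.4%, interval 13.7 to 78.8%). The p53 pathway had 3 of 14 (21.4%, interval 4.66 to 50.8%). Mitosis had 2 of 16 (12.5%, interval 1.55 to 38.3%) and the CDK inhibitors had 1 of 8 (12.5%, interval 0.316 to 52.7%). The G1/S group had 1 of 13 (7.69%, interval 0.195 to 36.0%). The background share of 13.9% lay inside all of these intervals, close to the lower bound of the licensing group, and differences between the groups were not tested. With only the peaks at or above the median score, 4 of the 60 genes carried a gene-end peak (6.67%, against 8.03% of all protein-coding genes), namely Cdk4, Mcm4, Mcm7 and Aurka, and no CDK inhibitor or p53 pathway gene did.

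**Figure D1:**
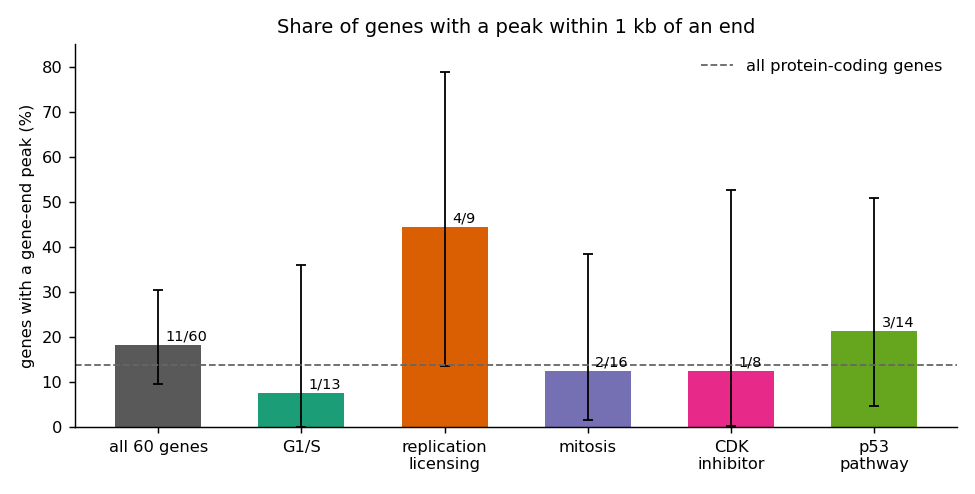
Share of genes with a peak within 1 kb of an annotated end, for all 60 genes and for each group; bars give the percentage, error bars the exact 95% interval, and the fractions over the bars the counts. The dashed line is the share of all protein-coding genes, 13.9%, and it crosses every interval, with the licensing genes highest at 44.4% and the G1/S genes lowest at 7.69%.

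The sequences shown next are the 250 bases before the annotated start of genes on which the results turn, read 5′ to 3′ on the gene's strand, from RefSeq on GRCm38.p6, the assembly that mm10 names. The 6 genes Cdk4, Pcna, Cdk1, Aurka, Trp53 and Mdm2 have their start under a peak. Cdkn1a, the CDK inhibitor gene that p53 induces, is shown as a gene with none listed near it, at the more upstream of its listed starts. Capitals mark the motifs searched for on both strands: the E2F sites TTTGGCGC and TTTCGCGC, the cell cycle homology region (CHR) TTTGAA, the CCAAT box, the GC box GGGCGG, the ETS site CCGGAAGT, the NRF1 site, the YY1 site AAGATGGCG, the TATA box TATAAA, the E-box CACGTG and the p53 decamer. None of these motifs contains another, and none overlap in the sequences shown. The E-box and the p53 decamer were added after the sequences were seen.
Cdk4, chr10:127063285-127063534, plus strand: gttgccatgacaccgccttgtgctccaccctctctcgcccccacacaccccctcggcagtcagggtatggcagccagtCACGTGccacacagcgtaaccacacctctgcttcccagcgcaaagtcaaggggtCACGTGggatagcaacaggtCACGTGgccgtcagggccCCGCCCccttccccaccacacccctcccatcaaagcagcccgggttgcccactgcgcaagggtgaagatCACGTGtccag
Pcna, chr2:132253181-132253430, minus strand: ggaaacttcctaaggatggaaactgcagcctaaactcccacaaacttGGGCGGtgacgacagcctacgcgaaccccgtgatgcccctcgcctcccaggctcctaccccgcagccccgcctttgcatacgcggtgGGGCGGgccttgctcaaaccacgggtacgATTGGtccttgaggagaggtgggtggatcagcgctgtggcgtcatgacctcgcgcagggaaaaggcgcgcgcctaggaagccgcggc
Cdk1, chr10:69352913-69353162, minus strand: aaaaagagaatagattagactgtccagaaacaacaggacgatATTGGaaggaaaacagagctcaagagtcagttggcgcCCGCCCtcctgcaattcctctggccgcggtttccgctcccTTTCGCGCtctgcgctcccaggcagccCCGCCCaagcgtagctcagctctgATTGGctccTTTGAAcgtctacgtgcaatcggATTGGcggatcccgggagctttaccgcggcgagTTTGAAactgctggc
Aurka, chr2:172370571-172370820, minus strand: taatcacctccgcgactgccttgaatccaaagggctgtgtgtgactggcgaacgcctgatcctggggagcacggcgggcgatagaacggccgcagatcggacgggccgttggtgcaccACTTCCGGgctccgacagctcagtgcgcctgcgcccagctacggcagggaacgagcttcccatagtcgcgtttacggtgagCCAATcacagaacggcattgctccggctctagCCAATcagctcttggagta
Trp53, chr11:69580109-69580358, plus strand: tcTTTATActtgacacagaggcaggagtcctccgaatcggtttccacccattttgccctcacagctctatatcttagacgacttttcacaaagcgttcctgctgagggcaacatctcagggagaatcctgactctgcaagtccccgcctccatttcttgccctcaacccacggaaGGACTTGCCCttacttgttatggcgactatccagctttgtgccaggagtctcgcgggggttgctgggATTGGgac
Mdm2, chr10:117710759-117711008, minus strand: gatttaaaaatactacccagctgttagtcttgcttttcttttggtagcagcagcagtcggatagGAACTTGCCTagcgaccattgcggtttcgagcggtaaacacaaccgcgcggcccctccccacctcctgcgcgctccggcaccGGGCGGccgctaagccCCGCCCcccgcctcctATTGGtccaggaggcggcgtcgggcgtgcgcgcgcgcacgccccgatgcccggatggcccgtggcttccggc
Cdkn1a, chr17:29090729-29090978, plus strand: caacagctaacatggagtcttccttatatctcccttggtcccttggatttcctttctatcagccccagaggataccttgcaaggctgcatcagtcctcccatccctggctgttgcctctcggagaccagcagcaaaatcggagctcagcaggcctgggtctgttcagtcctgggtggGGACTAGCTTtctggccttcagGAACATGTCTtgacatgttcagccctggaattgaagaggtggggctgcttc

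The gene-end peaks lay at the end where transcription starts. RefSeq start sites were at hand for 47 of the 60 genes, including 10 of the 11 with a gene-end peak, the exception being Mcm4. In all 10 the peak was at the 5′ end of the gene, and in 8 the annotated start itself lay under the peak. Over the whole list, among 1752 protein-coding genes longer than 10 kb with a known strand and a gene-end peak, 1627 (92.9%) carried it at the 5′ end alone, 102 at the 3′ end alone and 23 at both. The 10 genes were instead scored by the end nearer to the peak's midpoint, and some, such as Cdkn2d (2.96 kb), are shorter than 10 kb. The counts therefore differ in set and measure.

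**Figure D2:**
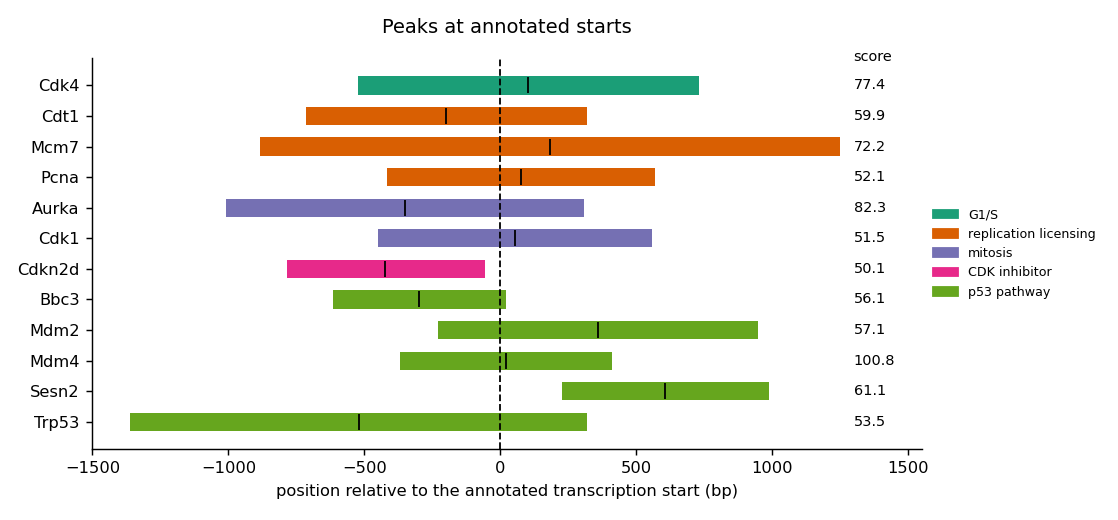
Extent of each peak lying within 1 kb of an annotated transcription start of the 60 genes; the horizontal axis is the position relative to the start nearest to the peak's midpoint in bp, downstream to the right, bars span the peak, ticks mark its midpoint, colours give the group and the number at the right is the authors' score. The bars of 10 genes cross the start at 0, that of Cdkn2d ends 58 bp upstream of it and that of Sesn2 begins 227 bp downstream.

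With starts in place of gene ends, 12 of the 47 genes had a peak within 1 kb of a start (25.5%, interval 13.9 to 40.3%), against 14.2% of all protein-coding genes with a listed start. The additions were Mdm4 and Bbc3, whose peaks count as interior by the outer limits of the gene but lie at starts inside it. The p53 pathway then had 5 of 11 genes (45.5%, interval 16.7 to 76.6%), the licensing genes 3 of 8, mitosis 2 of 12, the CDK inhibitors 1 of 7 and the G1/S genes 1 of 9. The share of 14.2% lies below the p53 interval, but with genes chosen knowing earlier results the interval is no test. Counted by start site, 11 of 59 starts of these genes lay directly under a peak (18.6%), against 11.7% of all starts of protein-coding genes.

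In the G1/S group Cdk4 was the gene with a gene-end peak. Cdk4 is the kinase partner of the D-type cyclins and phosphorylates the retinoblastoma protein. Its peak had a score of 77.4, above 59.7% of the peaks, and spanned 1254 bp from 524 bp before to 729 bp after the start (chromosome 10, 127063011 to 127064264). The sequence printed above lies wholly under it and holds 4 E-boxes, the site bound by MYC-MAX and USF factors, at 172, 118, 98 and 11 bases before the start.

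The D-type cyclin gene Ccnd3 held a weak peak of score 57.96 inside the gene (chromosome 17, 47521594 to 47522077), with its midpoint 16.8 kb beyond its upstream start, and under neither of its 2 listed starts. The other D-type cyclins, Ccnd1 and Ccnd2, had none, with the nearest peak midpoints 14.7 and 185 kb away. The peak nearest to Ccnd1 lay at ends of the lncRNA gene Bc1 and the protein-coding gene LTO1. Cdk6, which shares the D-type cyclins with Cdk4, had its nearest peak 12.7 kb downstream, at an end of Fam133b. From the listed start of Cdk6, a gene of 190 kb, the nearest peak was 200 kb away.

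None of the E-type cyclin genes Ccne1 and Ccne2, their kinase Cdk2, the phosphatase gene Cdc25a or the pocket protein gene Rb1 had a peak at an end or inside. Their nearest midpoints lay 28.9 kb (Cdk2), 43.0 kb (Cdc25a), 118 kb (Ccne2), 164 kb (Ccne1) and 184 kb (Rb1) away. Of the activating E2F genes, E2f2 was nearest, with a peak of score 58.3 4.02 kb past the 3′ end of the gene that reached no annotated gene end. That peak lay 19.3 kb from the nearer of the listed E2f2 starts. E2f3 and E2f1 lay 50.9 and 133 kb from a peak. The group as a whole had a median distance of 43.0 kb, against 78.8 kb for all protein-coding genes.

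The replication licensing group held the highest-scoring peak of the 60 genes. Mcm4, a subunit of the MCM2-7 helicase, had a peak of score 159.2 (chromosome 16, 15637164 to 15637917), above 92.2% of all peaks. It lay where the ends of Mcm4 and Prkdc meet, Prkdc being the catalytic subunit gene of the DNA-dependent protein kinase of DNA repair. Mcm7 had the widest, 2136 bp with a score of 72.2 (chromosome 5, 138170633 to 138172768), which covered both of its listed starts and reached an end of the adaptor protein gene Ap4m1.

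Pcna, the sliding clamp of DNA polymerases, had a peak of score 52.1 over its start (chromosome 2, 132252612 to 132253595) that also reached an end of Cds2, a phospholipid synthesis gene. Cdt1, which brings the MCM helicase to origins, had one of 59.9 over its start (chromosome 8, 122567299 to 122568333). Only 7.89% of all peaks scored lower than that of Pcna, and 30.9% lower than that of Cdt1.

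The other licensing genes were split between near and far. Cdc6, the partner of Cdt1 in loading the helicase, had a peak of score 50.8 1.84 kb past its 3′ end, which reached no annotated gene end. Mcm2 had one of 176.8 lying 3.51 kb upstream of its start, at an end of Tpra1. Mcm5 and Mcm6 lay 25.5 and 57.5 kb from a peak. Mcm3 lay 1473 kb from one, the greatest distance among the 60 genes. So of the 6 MCM2-7 subunit genes 2 carried a gene-end peak, although their proteins form 1 complex. The median distance of the group was 1.84 kb, the lowest of the 5 groups. It is the distance of Cdc6, whose peak past the 3′ end lay 17.6 kb from the start.

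In the mitosis group 2 kinase genes carried a peak. Aurka, the Aurora kinase of centrosomes and spindle poles, had a peak of score 82.3 that reached from 1009 bp before to 307 bp after the start (chromosome 2, 172370263 to 172371579). This peak also lay at an end of Cstf1, a subunit gene of the cleavage stimulation factor for mRNA 3′ ends. Cdk1, the kinase that drives entry into mitosis, had a peak of score 51.5 centred 53 bp after its start (chromosome 10, 69352356 to 69353362), near the bottom of the list with 5.91% of peaks scoring lower.

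The Cdk1 promoter printed above, wholly under its peak, carries the arrangement known for genes of late cell cycle phases, with CCAAT boxes upstream of CHR elements. It holds CCAAT boxes starting 208, 80 and 48 bases before the start, CHR elements starting 71 and 15 bases before it and 1 E2F site starting 131 bases before it. The Aurka promoter holds 2 CCAAT boxes and 1 ETS site, and no CHR element in this window.

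The remaining 14 genes of mitosis had no peak at an end or inside. These were the cyclins Ccna2, Ccnb1 and Ccnb2, which lay 116, 34.2 and 75.5 kb from a peak, and Plk1, the Polo kinase, at 92.2 kb. They were also the spindle checkpoint genes Bub1, Bub1b and Mad2l1 at 57.7, 48.6 and 329 kb, and Cdc20, which activates the anaphase-promoting complex, at 111 kb. Of the proliferation markers, Mki67 and Top2a lay 20.0 and 42.0 kb from a peak, and Foxm1, a transcription factor of the G2/M programme, 48.9 kb. Aurkb was nearest of these genes, at 4.14 kb, and the peak concerned (score 97.7) reached the ends of 4 tRNA genes, n-TPcgg3, n-TDgtc9, n-TGtcc6 and n-TWcca7. Cdc25c and Cdc25b, phosphatases that activate Cdk1, were 7.74 and 11.7 kb away. The peak near Cdc25c (score 337.7) reached Fam53c, the lncRNA gene 2010110K18Rik, the microRNA gene Mir12191 and the noncoding RNA gene Gm3561.

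Among the CDK inhibitors, Cdkn2d, which encodes the INK4 protein p19, had a gene-end peak of score 50.1 (chromosome 9, 21291267 to 21291995). It was one of the weakest of the list, with 0.277% of peaks scoring lower, and it ended 58 bp upstream of the annotated start. The other INK4 genes had none. Cdkn2a and Cdkn2b, neighbours on chromosome 4, had the same nearest peak, of score 75.3 at a pseudogene, 57.3 and 89.1 kb away, and Cdkn2c lay 362 kb from one.

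The CIP/KIP genes carried no gene-end peak. Cdkn1b, which encodes p27, had a peak of score 97.3 lying 3.07 kb past its 3′ end and 8.19 kb from its start, at an end of the lncRNA gene Lockd. Cdkn1a (p21) and Cdkn1c (p57) lay 168 and 246 kb from a peak. The Cdkn1a sequence printed above holds 2 p53 decamers, 73 and 51 bases before the start. Cdkn3, a phosphatase that acts on CDKs and not an INK4 or CIP/KIP protein, lay 50.7 kb from a peak.

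In the p53 pathway, Trp53, Mdm2 and Mdm4 each had a peak over a start. Trp53 had a peak of score 53.5 (chromosome 11, 69578999 to 69580679) that reached from 1360 bp before to 320 bp after the start and also lay at an end of Wrap53, the neighbouring gene whose product acts in telomerase assembly. Mdm2, the ubiquitin ligase that degrades p53 and is itself induced by it, had a peak of score 57.1 from 229 bp before to 948 bp after the start (chromosome 10, 117709810 to 117710987). Mdm4, which binds and inhibits p53, had a peak of score 100.8 over the more downstream of its 2 starts (chromosome 1, 133025005 to 133025785), with its midpoint 21.0 bp from that start. That peak scored higher than 77.1% of the list and also lay at ends of the pseudogene Gm29257 and the lncRNA gene Gm41953. A second peak, of score 145.2, lay 3.50 kb upstream of Mdm4 at the tRNA genes n-TKctt25 and n-TKctt26.

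Of the other p53 target genes, Sesn2 and Bbc3 carried a peak. Sesn2, a stress-induced inhibitor of mTORC1 signalling, had one of score 61.1 that lay inside the gene and began 227 bp after its start (chromosome 4, 132509470 to 132510229). Bbc3, which encodes the pro-apoptotic protein PUMA, had one of score 56.1 inside the gene that covered 1 of its 3 listed starts (chromosome 7, 16309646 to 16310281). These are also the genes at the limit of the 1 kb rule. The Sesn2 peak lay 227 bp from the gene's end, while the other 10 gene-end peaks overlapped an end, and the nearest peaks that missed the rule lay 1248 bp (Bbc3) and 1337 bp (Cdc6) from an end.

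The remaining p53 targets had no peak at an end or inside. Btg2, an antiproliferative gene, and Bax, a pore-forming protein of apoptosis, lay 19.8 and 27.1 kb from a peak. A set of 7 lay farther than 200 kb from any peak: Ccng1 at 220 kb, Gadd45a at 229 kb, Pmaip1 at 305 kb, Zmat3 at 343 kb, Aen at 362 kb, Sesn1 at 369 kb and Rrm2b at 916 kb. The 14 genes thus fell into 7 within 27.1 kb of a peak and 7 beyond 219.9 kb, with none between. The group's median of 124 kb falls in the gap. Within 200 kb of a peak lay 7 of these 14 genes, against 68.4% of all protein-coding genes. The split was read from the distances of 14 genes and was not tested.

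**Figure D3:**
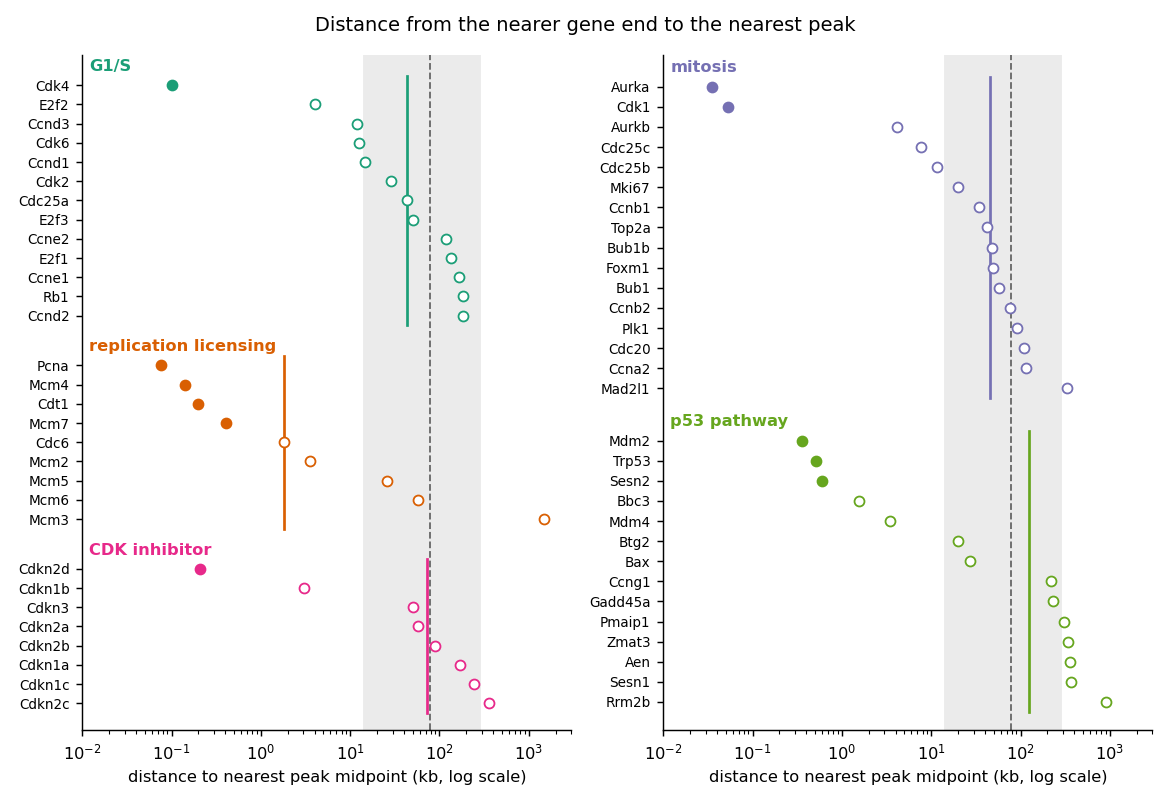
Distance from the nearer annotated end of each of the 60 genes to the nearest peak midpoint, in kb on a log axis, by group; filled points have a gene-end peak, open points do not, and coloured lines are group medians. The grey band and dashed line are the quartiles (14.1 and 285 kb) and median (78.8 kb) of all protein-coding genes. The licensing genes had the lowest median, 1.84 kb (that of Cdc6), and the p53 pathway genes the highest, 124 kb.

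Over all 60 genes the median distance to a peak was 42.5 kb (quartiles 3.51 and 141 kb), against 78.8 kb for all protein-coding genes (quartiles 14.1 and 285 kb). Within 10 kb of a peak were 19 of the 60 genes (31.7%), against 22.0% of all protein-coding genes. Within 100 kb were 41 (68.3%), against 54.5%. The genes were 13.2 kb long in the median, against 17.2 kb for all protein-coding genes. The farthest from a peak were Mcm3, Rrm2b, Sesn1, Cdkn2c and Aen, in that order.

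**Figure D4:**
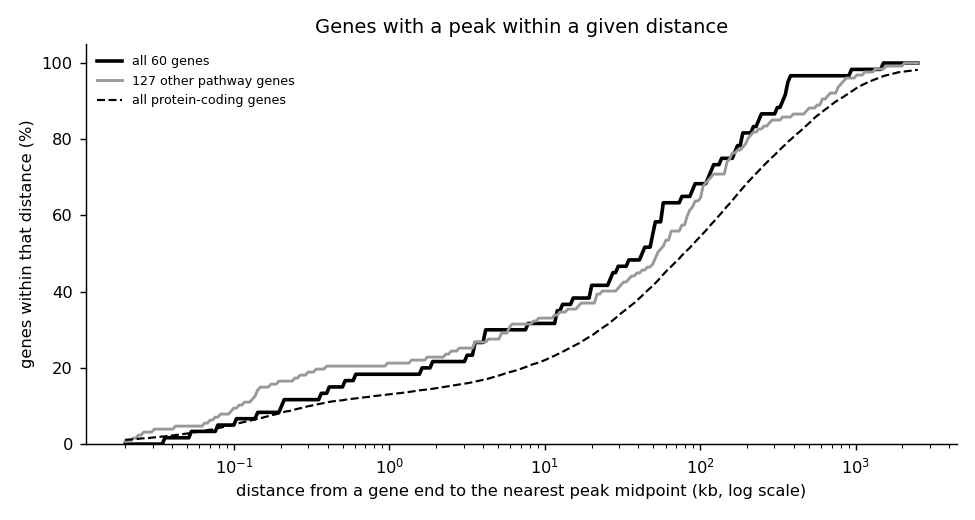
Percentage of genes whose nearest peak midpoint lies within a given distance of a gene end, in kb on a log axis, for the 60 genes, 127 other cell cycle and p53 genes and all protein-coding genes. At 10 kb the curves stand at 31.7%, 33.1% and 22.0%, and at 100 kb at 68.3%, 64.6% and 54.5%.

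The gene-end peaks of the 60 genes were mostly weak and wide within the list. Their median score was 59.9, and 8 of the 11 scored below 74.4, the median of the 2466 peaks at ends of protein-coding genes. Low scores were not particular to them. The 29 gene-end peaks of the 127 other cell cycle and p53 genes had a median of 63.5, and 17 were below 74.4. Of the 11, Mcm4, Aurka, Cdk4 and Mcm7 were above the list's median of 69.9. Their median width was 1035 bp, against 788.5 bp for peaks at ends of protein-coding genes, and 3 of the 11 were narrower than that. Shared peaks made up 5 of the 11 (45.5%), those of Mcm4, Mcm7, Pcna, Aurka and Trp53, each with the 1 other protein-coding gene named above. Among all 2466 peaks at ends of protein-coding genes, each counted once, 614 (24.9%) were shared. The 11 were found by way of genes, and a shared peak can be reached from each of its genes. These shares are therefore not counted alike, and their difference is not read as a trait of the 60 genes. For a shared peak, the list does not tell which of the genes it belongs to.

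**Figure D5:**
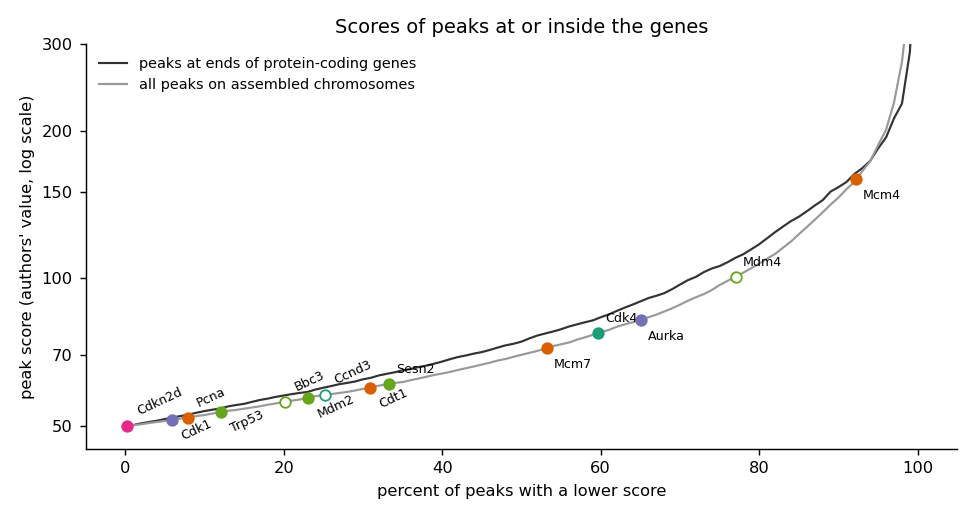
Score of each peak at an end (filled) or inside (open) of the 60 genes, on a log axis, against the percentage of all peaks with a lower score; colours give the groups as in the plots by group, and lines are the distributions for all peaks and for peaks at ends of protein-coding genes. Of the 14 points, 9 lie between 50.1 and 61.1, while Mcm4 stands highest at 159.2, followed by Mdm4 at 100.8.

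In the 250 bases before the start, the 11 starts under a peak had a median GC content of 62.4% and a median of 22 CpG dinucleotides (range 5 to 29), and the 48 starts without one had 59.8% and 17.5 (range 2 to 43). The lowest counts were 2 at the Cdkn1a start printed above and 4 at a start each of Mdm4 and E2f2. Over all protein-coding genes, starts under a peak had 59.2% and 17 CpG, and starts without one 54.8% and 8.

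Promoter motifs are given as a description of the same window. Of the 47 genes with a listed start, 34 held a CCAAT box (72.3%, against 39.5% of all protein-coding genes) and 37 a GC box (78.7%, against 45.8%). An E2F site was found in 4 (8.51%, against 0.983%) and a CHR element in 12 (25.5%, against 16.9%), 5 of them among the 12 mitosis genes. A p53 decamer was found in 10 (21.3%, against 7.34%), 7 of them among the 11 p53 pathway genes. An E-box was found in 6 (12.8%, against 7.61%), an ETS site in 1 (2.13%, against 4.26%), a TATA box in 2 (4.26%, against 13.7%) and a YY1 site in 1 (2.13%, against 0.840%). No NRF1 site was found, against 1.21%.

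Within the set, the shares were set out by whether the start lay under a peak. A CCAAT box stood before 63.6% of the 11 starts under a peak and 64.6% of the 48 others, and a GC box before 72.7% and 72.9%. A p53 decamer stood before 18.2% of the starts under a peak and 16.7% of the others, and a CHR element before 9.09% and 22.9%. The ETS site stood before 1 of the 11 starts under a peak, that of Aurka, and before none of the 48 others. Over all protein-coding genes, a GC box stood before 54.9% of the starts under a peak and 41.0% of the others, and the ETS site before 10.6% and 2.89%. The E2F site stood before 1 start under a peak, that of Cdk1, and before 3 others.

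A list of 127 other genes of the same pathways was also chosen by name, with earlier results of these data known. Of these, 28 carried a gene-end peak (22.0%, interval 15.2 to 30.3%), against 13.9% of all protein-coding genes. That share lies below the interval, but with genes so chosen the interval is no test, and enrichment was not tested. By group these were 4 of 24 other G1/S genes, 8 of 33 other replication genes, 12 of 40 other mitosis genes (30.0%, interval 16.6 to 46.5%) and 4 of 30 other p53 genes. The highest scores were at Mad1l1 (242.8), a spindle checkpoint gene, Nuf2 (213.7), a kinetochore gene, and Gins3 (194.2), of the GINS complex of the replicative helicase. They were followed by Cdc45 (159.3), the helicase cofactor, Smc3 (138.0) of cohesin, and Cdc16 (134.8) and Anapc5 (130.6) of the anaphase-promoting complex. Next were Gins1 (126.2), Skp1 (125.5) of the SCF ubiquitin ligase, and Anapc13 (113.0). Of these peaks, those of Mad1l1, Cdc45 and Anapc13 also lay at an end of another protein-coding gene, namely Nudt1, Ufd1 and Cep63. The pocket protein genes Rbl1 and Rbl2 carried peaks of 63.7 and 57.6 over their starts, unlike Rb1. Myc, which promotes entry into the cycle, carried none, with its nearest peak 828 kb away.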

How the data were processed

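Chromatin from ckit and sca1 positive cells was immunoprecipitated with anti-Usp16 or with IgG, 1 library each. The authors called the peaks with MACS in Galaxy, per the file headers, and deposited 1 list with a position and a score for each peak. Bowtie, Picard and mm10 are named in the submitters' processing notes, without versions. Which MACS version was run, with what settings and whether against IgG is not given in the sources used. The score's scale is not stated, so it was used only to rank and filter peaks within the list.

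From this list, starts were made 1-based, and 33 peaks on unplaced or unlocalized contigs were left out. Gene limits came from RefSeq for GRCm38.p6, and start sites and promoter bases from a RefSeq promoter table that gave strand for 47 of the 60 genes. A gene-end peak overlaps by 1 bp or more the window of 1 kb to either side of a gene end. An interior peak lies wholly inside the gene. Distances run from the nearer gene end to the nearest peak midpoint.

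The 60 genes, their groups and the 127 other pathway genes were chosen with earlier results of these data known. Named were all genes with a peak at an end or inside, those within 10 kb of a peak, the 5 farthest, genes of general interest, genes sharing a peak and the 10 highest-scoring other pathway genes, and further members were named to account for each group. Counts were made with Python 3.11.15, pandas 2.3.3 and scipy 1.17.1, and the counting was tested on simulated peaks. The alternatives were windows of 500 bp and 5 kb, the 2524.0 peaks at or above the median score, the midpoint or at least 50% of the peak inside the window, and annotated starts alone.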

Additional observations from a re-analysis of the deposited data

How the results depend on the processing

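The counts depended mainly on the score a peak must reach. With the 2524.0 peaks at or above the median score on the assembled chromosomes, 4 of the 60 genes kept a gene-end peak (Cdk4, Mcm4, Mcm7 and Aurka; 6.67%, against 8.03% of all protein-coding genes), and 5 a peak at an end or inside. That left 2 licensing genes, 1 mitosis gene, 0 CDK inhibitors and 0 p53 pathway genes, and the median distance to a peak became 114 kb. A shorter list can only lower such counts and lengthen distances for any gene. For the count at an end or inside and for the distance, no value for all protein-coding genes with this filter is given here. With a window of 5 kb, 18 genes counted (30.0%, against 18.3%), among them 2 G1/S genes, 2 CDK inhibitors and 5 p53 pathway genes. With annotated starts alone, 5 of 11 p53 pathway genes (45.5%) and 3 of 8 licensing genes (37.5%) counted. The share of all protein-coding genes with a listed start was 14.2%. The group with the highest share thus changed from licensing to p53, and Mcm4, without a listed start, was left out. The windows of 500 bp, the midpoint and the overlap of at least 50% each gave the same 11 genes. No paired analysis was possible because there was 1 library per antibody. Read depth is unknown, and the scores just above 50 at Cdkn2d, Cdk1, Pcna and Trp53 lie at the edge of what the list can show.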
